A study of Mus musculus with 8 samples.

Results

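The 8 genes described here encode enzymes that lengthen or desaturate long-chain fatty acids: Fads1, Fads2, Fads3, Elovl1, Elovl2, Elovl3, Elovl5 and Elovl7. They were chosen by name. Every probe whose annotation gave one of these symbols alone was taken, which gave 11 probes among the 41174 tested and 8 gene rows among 28042. Fads3, Elovl5 and Elovl7 had 2 probes each and the other 5 genes had 1. The livers came from 4 mice carrying the mper2brdm1 allele of the clock gene Per2 and from 4 WT mice, with 1 array of 1 colour per mouse. The strain was a mix of 129sv and C57Bl/6, and the animals formed a single cohort. Food had been withheld for 8 h in both genotypes, so that every liver was fasted and no fed group was compared. The sample titles call the mutants KO, while the allele is known as an in-frame deletion within the Per2 protein. The allele was not restricted to the liver, and RNA was taken from the whole organ. The labels gave neither age, sex nor the hour at which the mice were killed.

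Long-chain fatty acids are extended in the endoplasmic reticulum by a cycle of enzymes whose first, rate-setting step is catalysed by an ELOVL elongase, each with its own range of chain lengths. Polyunsaturated fatty acids of the diet are processed by alternating desaturation and elongation. FADS2 is the delta-6 desaturase and FADS1 the delta-5 desaturase of this path, ELOVL5 and ELOVL2 extend its intermediates, and the products include arachidonic and docosahexaenoic acid. ELOVL1, ELOVL3 and ELOVL7 act mainly on saturated and monounsaturated chains, and ELOVL6 with the stearoyl-CoA desaturases links palmitate synthesis to oleate. In liver, several of these genes are known targets of SREBP-1c and of PPARalpha, and Elovl3 in mouse liver is known for a daily rhythm and for higher expression in males.

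Promoter windows were searched because several of the genes share known regulators. RefSeq sequences of build GRCm38.p6, running from 250 bases before to 50 bases after the start of the gene, were at hand for 6 of the 8 genes in 8 windows. Fads1 and Elovl3 had no entry. On both strands, the E-box CACGTG was found in 1 of these windows, that of Elovl5, and in 7.15% of all 32851 windows. The core letters bound by nuclear receptors, AGGTCA, was found in 1 window of Elovl1 and in 16.3% of all windows. The D-box, as TTATGTAA or TTACGTAA, and the sterol element, as TCACNCCAC, were in none of the 8 windows, and in 1.06% and 1.24% of all windows. No match says only that these letters are not in this window. Shown are the windows of Elovl5 (chr9:77917115-77917414, plus strand), of Fads2 (chr19:10101454-10101753, minus strand) and, as the elongase that fell in the mutants, of Elovl6 (chr3:129532136-129532435, plus strand). Capitals mark the E-box in Elovl5, at base -161 from the start, and in Elovl6 the letters TGACCT at base -193, which read AGGTCA on the opposite strand. Fads2 held none of these motifs.
Elovl5: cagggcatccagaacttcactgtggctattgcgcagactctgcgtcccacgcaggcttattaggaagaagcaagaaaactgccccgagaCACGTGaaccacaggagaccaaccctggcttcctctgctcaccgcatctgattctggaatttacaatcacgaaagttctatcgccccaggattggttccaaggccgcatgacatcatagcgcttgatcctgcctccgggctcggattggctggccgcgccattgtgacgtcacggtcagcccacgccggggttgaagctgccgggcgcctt
Fads2: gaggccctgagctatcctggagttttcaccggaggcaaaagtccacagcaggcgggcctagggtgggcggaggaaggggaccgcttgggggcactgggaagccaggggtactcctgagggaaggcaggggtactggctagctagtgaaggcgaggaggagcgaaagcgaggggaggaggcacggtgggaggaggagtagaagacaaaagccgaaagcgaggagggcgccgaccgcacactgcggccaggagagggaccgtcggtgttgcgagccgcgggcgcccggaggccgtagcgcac
Elovl6: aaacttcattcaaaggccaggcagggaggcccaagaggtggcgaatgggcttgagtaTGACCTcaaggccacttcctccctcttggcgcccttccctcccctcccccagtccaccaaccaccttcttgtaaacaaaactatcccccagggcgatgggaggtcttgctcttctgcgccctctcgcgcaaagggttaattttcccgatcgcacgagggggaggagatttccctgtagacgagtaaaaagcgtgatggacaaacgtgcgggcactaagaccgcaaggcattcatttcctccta

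Each deposited value was relative to the median of its probe across all 8 arrays, so the values gave differences between mice and no levels. The levels of the 8 genes could therefore not be ordered, and the liver identity of the tissue could not be checked from absolute signals of hepatocyte markers. No source gave the base of the logarithm, which was read as 2, with higher values read as brighter signal. Each array was shifted to a common 75th percentile, by -0.09 to -0.01 in mutants and by 0.05 to 0.07 in WT mice. After this shift the median mutant minus WT difference over all rows was 0.08, against 0.20 for the values as deposited. The control features of WT replicates 2 and 3 had medians of -0.66 and -0.43, against -0.04 to 0.13 on the other 6 arrays. The probes of the targeted gene, Per2, moved in opposite directions. A_51_P282760 ran from -0.84 to -0.74 in mutants and from 0.70 to 1.13 in WT mice, and A_52_P536869 from 1.09 to 1.52 in mutants and from -1.37 to -1.10 in WT mice. All 8 arrays thus separated by label, and where the probes lie relative to the deletion was not tested. Differences below are mutant minus WT in log2, each with its standard error (±) from limma. Groups held 4 mice each, and p-values were adjusted by Benjamini-Hochberg over all 28042 rows.

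None of the 8 genes changed at an adjusted p under 0.05 in the limma fit over all mice, although 15.5% of all rows did (8.93% lower and 6.52% higher). With the values as deposited the called rows split the other way, with 2449 higher and 1537 lower, against 1828 higher and 2505 lower after scaling. Unadjusted p-values under 0.05 were given to 3 of the 8 genes, Elovl3, Fads1 and Elovl5, against 30.3% of all rows. A test of each row on its own variance, adjusted in the same way, also called 0 of the 8, against 4561 of all 28042 rows. The median difference of the 8 genes was -0.11. Their differences ran from -0.50 for Elovl5 to 2.11 for Elovl3. The genotypes did not overlap for 1 of the 8 genes, Fads1, against 24.6% of all rows. Without WT replicates 2 and 3, the mice with low control features, 0 of the 8 passed by limma as well, against 1766 of all 28042 rows. In whole liver, fewer cells of a type and less RNA per cell cannot be told apart. In single probes, 0 of 11 passed, while 16.3% of all probes did.

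**Figure D1:**
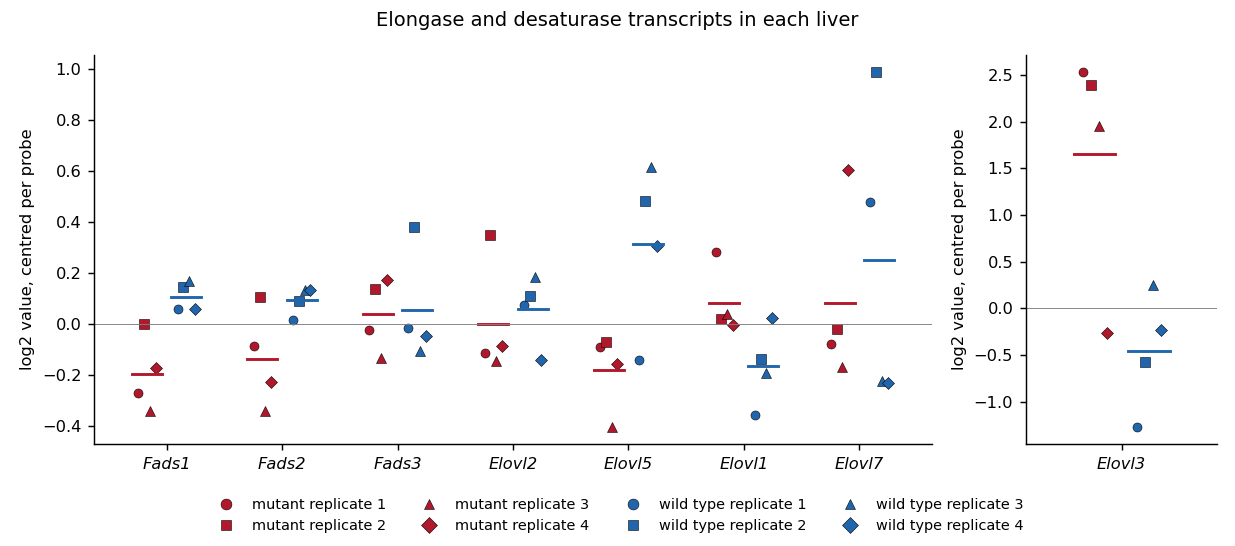
Centred log2 value of each gene (mean of its probes) in every mouse, mutants on the left and WT on the right of each pair, with the group mean as a bar. Elovl3 is drawn on its own axis, with 3 mutants between 1.95 and 2.53 and mutant replicate 4 at -0.27, among the WT values of -1.27 to 0.25.

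Fads1, the delta-5 desaturase gene, had values of -0.27, -0.0018, -0.34 and -0.17 in mutant replicates 1 to 4, against 0.06, 0.14, 0.17 and 0.06 in WT replicates 1 to 4. Every mutant lay below every WT mouse, by a narrow gap. The difference was -0.30 ± 0.11 (1.23-fold lower, limma adjusted p = 0.103), with a 95% interval of -0.55 to -0.05. An exact permutation test, two-sided, returned p = 0.0286, which is the lowest possible in groups of 4. The separation changed with the scaling of the arrays. In the deposited values, Fads1 overlapped and Elovl1 was the gene that did not, against 25.9% of all rows free of overlap. With a common median or quantile scaling 0 of the 8 genes were free of overlap, against 24.9% and 25.1% of all rows.

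Fads2, the delta-6 desaturase gene, gave -0.09, 0.11, -0.34 and -0.23 in mutant replicates 1 to 4, against 0.01, 0.09, 0.13 and 0.13 in WT replicates 1 to 4. Mutant replicate 2 lay among the WT mice and the other 3 mutants lay below them. The difference was -0.23 ± 0.12 (limma adjusted p = 0.209), with a 95% interval of -0.51 to 0.05. As deposited, without the scaling of arrays, Fads2 differed by -0.11 and Fads1 by -0.18. Fads1 and Fads2 neighbour each other on chromosome 19, with 1 pseudogene annotated between them, and Fads3 lies next in the same cluster beyond a long noncoding RNA. The within-array difference Fads1 minus Fads2, which a shift of a whole array leaves unchanged, averaged -0.06 ± 0.11 in mutants and 0.01 ± 0.06 in WT mice (SD, n = 4 each). These means differed by -0.07 (exact two-sided permutation p = 0.257, and 0.257 adjusted over the 4 within-array comparisons computed), less than the spread between mutants.

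Fads3, a desaturase gene of the same cluster, gave a mean of 0.04 ± 0.14 in mutants and 0.05 ± 0.22 in WT mice (SD, n = 4 each), and the groups overlapped fully. The difference was -0.02 ± 0.14, with a 95% interval of -0.34 to 0.31 and a limma adjusted p of 0.945. Its probes differed in sign, at 0.05 ± 0.13 for A_51_P464029 and -0.08 ± 0.17 for A_52_P451796, both far within their errors. WT replicate 2 was the highest mouse on both, at 0.23 and 0.53.

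Elovl5, the elongase gene of the shorter polyunsaturated chains, had the lowest difference of the 8. Its values were -0.09, -0.07, -0.40 and -0.16 in mutant replicates 1 to 4, against -0.14, 0.48, 0.61 and 0.31 in WT replicates 1 to 4. WT replicate 1 lay among the mutants, and the other 3 WT mice lay above all of them. The difference was -0.50 ± 0.18 (1.41-fold lower, limma adjusted p = 0.109), with a 95% interval of -0.91 to -0.08. Both probes were lower, A_51_P505493 by -0.56 ± 0.18 (limma adjusted p = 0.0742) and A_52_P676944 by -0.43 ± 0.19 (limma adjusted p = 0.166). Without WT replicate 1 the difference was -0.65 (limma adjusted p = 0.0266), the only one of the 18 other settings in which Elovl5 passed. Without WT replicates 2 and 3 it was -0.26 (limma adjusted p = 0.477).

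Elovl2, which extends the longer polyunsaturated chains, gave -0.11, 0.35, -0.15 and -0.09 in mutant replicates 1 to 4, against 0.07, 0.11, 0.18 and -0.14 in WT replicates 1 to 4. The groups overlapped, and mutant replicate 2 was the highest of the 8 mice. The difference was -0.06 ± 0.15 (limma adjusted p = 0.801), with a 95% interval of -0.39 to 0.28. It was -0.17 without mutant replicate 2 and -0.0071 without mutant replicate 3. The difference Elovl5 minus Elovl2 within each array averaged -0.18 ± 0.20 in mutants and 0.26 ± 0.32 in WT mice (SD, n = 4 each), a change of -0.44 (exact two-sided permutation p = 0.0857, and 0.114 adjusted over the 4). These 4 include the pairs of Elovl6 and Scd1 described below, which were chosen after the values were seen. Without those pairs the adjusted p would be higher. WT replicate 1 stood at -0.22, against 0.37 to 0.45 in the other WT mice, and without that mouse the change was -0.60.

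In their gene means, Fads1, Fads2, Elovl2 and Elovl5 had the same lowest mutant, replicate 3, the same highest mutant, replicate 2, and the same highest WT mouse, replicate 3. The order of the other mice differed between them. The lowest WT mouse was replicate 4 for Fads1 and Elovl2 and replicate 1 for Fads2 and Elovl5, and WT replicates 3 and 4 were close to a tie for Fads2, at 0.1335 and 0.1330. The probes of Elovl5 differed in their highest mutant, which was replicate 4 for A_51_P505493, at -0.05, and replicate 2 for A_52_P676944, at 0.01. Counting all 8 genes, mutant replicate 3 was the lowest mutant for 6, against 21% of all rows. Mutant replicate 2 was the highest mutant for 4 of 8, against 21% of all rows, and WT replicate 3 the highest WT mouse for 5 of 8, against 20.3%. WT replicate 1 was the lowest WT mouse for 4 of 8, against 21.3%. These places were picked out after the values were seen. These genes were measured on the same arrays and share the scaling of each array.

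**Figure D2:**
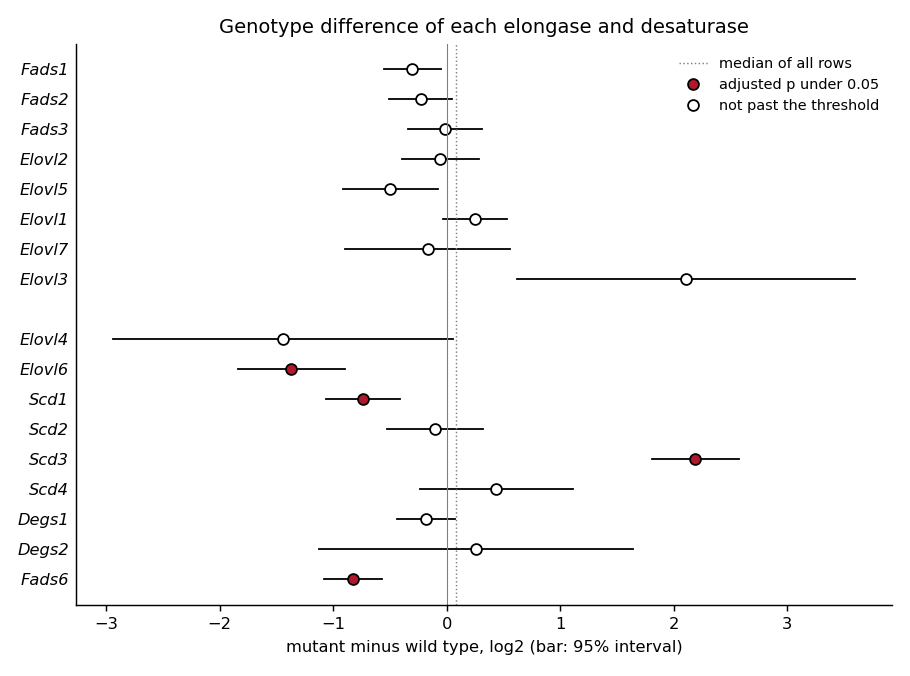
Mutant minus WT difference in log2 with its 95% interval for the 8 genes (top) and for 9 other elongase and desaturase genes (bottom), filled where the limma adjusted p is under 0.05. The 8 genes are all open, Elovl6, Scd1 and Fads6 are filled at -1.37, -0.74 and -0.82, and Scd3 is filled at 2.19.

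Elovl3, the elongase of saturated and monounsaturated very long chains, varied most of the 8. It had values of 2.53, 2.39, 1.95 and -0.27 in mutant replicates 1 to 4, against -1.27, -0.58, 0.25 and -0.23 in WT replicates 1 to 4. The values of 3 mutants lay far above all WT mice, and mutant replicate 4 lay within the WT range. The difference was 2.11 ± 0.64 (4.31-fold, limma adjusted p = 0.0656), with a 95% interval of 0.62 to 3.60. The residual SD of 1.03 was higher than that of 93.8% of rows. The exact permutation p, two-sided, was 0.0857. Without mutant replicate 4 the difference was 2.75 (limma adjusted p = 0.00669), and the other 18 settings gave 1.81 to 2.40 with adjusted p-values from 0.0504 to 0.183.

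Since none of the 8 genes passed, the rule for naming genes of like pattern selected 0, and the genes nearest to Elovl3 were looked up after its values had been seen. Over the 8 arrays, the named gene with the smallest root mean square difference from Elovl3 was Fgf21, the gene of a hormone that fasting liver secretes, at 0.41. Fgf21 gave 2.13, 2.01, 0.96 and 0.09 in mutant replicates 1 to 4, against -1.49, -0.76, -0.54 and -0.11 in WT replicates 1 to 4. Mutant replicate 4 was again the lowest mutant, here above all WT mice. Fgf21 rose by 2.02 ± 0.50 (limma adjusted p = 0.0320), a call lost in 9 of 19 other settings, among them leaving out mutant replicate 1, 2 or 3 or WT replicate 1, 2 or 3 (adjusted p of 0.0562 or more). Next came Olfr1462, the leptin receptor gene Lepr, the heme oxygenase gene Hmox1 and Gjc3, at 0.51 to 0.59. Of these 4, Hmox1 rose (1.90 ± 0.30, limma adjusted p = 0.00596), and the other 3 had differences of 1.37 to 2.02 with adjusted p-values of 0.0547 to 0.125. Mutant replicate 4 was the lowest mutant for each of the 5 genes. This shared order and the positive differences follow largely from choosing the genes for closeness to Elovl3 on these same arrays.

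Elovl3 is also known from brown fat, where Ucp1 and Cidea mark the cells. Ucp1 was at 0.03, -4.32, -4.03 and 0.57 in mutant replicates 1 to 4, against -0.04, 0.79, 0.87 and -1.10 in WT replicates 1 to 4. Cidea was at 1.26, -1.73, -2.22 and 1.53 in mutant replicates 1 to 4, against -0.12, 0.48, 0.23 and -0.74 in WT replicates 1 to 4. Both were lowest in mutant replicates 2 and 3. Of 9 measured adipocyte genes 1 fell (Pparg, -1.31 ± 0.14, limma adjusted p = 0.00145) and 0 rose by the limma test. Of all rows 8.93% were called lower. Pparg ran from -0.69 to -0.42 over mutants and from 0.40 to 0.89 over WT mice, without the drop of Ucp1 and Cidea in mutant replicates 2 and 3. The differences of the 9 genes ran from -2.07 to -0.20, with a median of -0.92. The mean value of the list ran from -1.56 to 0.30 over mutants and from 0.03 to 1.003 over WT mice. The part of fat tissue in the Elovl3 values was not tested.

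The sex of the mice was not labelled, and genes with a known sex bias in mouse liver were set beside Elovl3. Of all rows 8.93% were called lower and 6.52% higher. Of 11 male-biased genes 2 rose, C6 (1.28 ± 0.11) and Cyp7b1 (1.10 ± 0.23), and 1 fell, Cyp2u1 (-0.53 ± 0.12). Their limma adjusted p-values were 0.000819, 0.0175 and 0.0272. The call of Cyp7b1 was lost without mutant replicate 2 and that of Cyp2u1 when mutant replicate 2, 3 or 4 or WT replicate 1, 3 or 4 was left out. Of 12 female-biased genes 1 fell, Cyp2a4 (-2.88 ± 0.28, limma adjusted p = 0.00101), and 0 rose. Others on these lists did not pass and went both ways. Female-biased Hao2 differed by -2.58 ± 0.74 and Cyp2b9 by 1.63 ± 0.53 (limma adjusted p = 0.0543 and 0.0800). Male-biased Hsd3b5 differed by -0.87 ± 0.26 (limma adjusted p = 0.0589). The median difference was 0.17 for the male-biased list and 0.06 for the female-biased list. Of 4 transcripts of the sex chromosomes Kdm5d, on the Y chromosome, fell (-0.56 ± 0.12, limma adjusted p = 0.0214), a call lost without mutant replicate 3 or 4 or WT replicate 2, and 0 rose. Xist ran from -0.03 to 0.96 over mutants and from -0.53 to -0.05 over WT mice (0.60 ± 0.24, limma adjusted p = 0.135). Eif2s3y, on the Y chromosome, differed by -0.42 ± 0.13 (limma adjusted p = 0.0672). Uty, also on the Y chromosome, overlapped between genotypes and differed by 0.05 ± 0.14 (limma adjusted p = 0.809). The genotypes did not overlap for the other 3 of the 4 transcripts, against 24.6% of all rows. Cyp4a12a, a gene expressed in male liver, lay between -0.09 and 0.08 in all 8 mice, and Cyp4a12b differed by 0.37 ± 0.11 (limma adjusted p = 0.0603). The part of sex in the Elovl3 values was not tested.

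Elovl1, an elongase of very long saturated chains, had values of 0.28, 0.02, 0.04 and -0.0052 in mutant replicates 1 to 4, against -0.36, -0.14, -0.19 and 0.02 in WT replicates 1 to 4. The 3 lowest mice were WT, and WT replicate 4 lay among the mutants. The difference was 0.25 ± 0.12 (limma adjusted p = 0.198), with a 95% interval of -0.03 to 0.53.

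Elovl7, an elongase gene with known expression in several epithelia, showed the largest disagreement between probes. Probe A_51_P189594 was highest in WT replicate 1, at 1.97, where probe A_52_P354682 was at its lowest, -1.02. Probe A_52_P354682 was highest in WT replicate 2, at 1.90, where the other probe stood at 0.07. Only mutant replicate 4 was above all other mutants on both, at 0.35 and 0.86. The gene mean differed by -0.17 ± 0.31 (limma adjusted p = 0.717), and the probes, which that mean hides, gave -0.23 ± 0.54 and -0.11 ± 0.58.

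**Figure D3:**
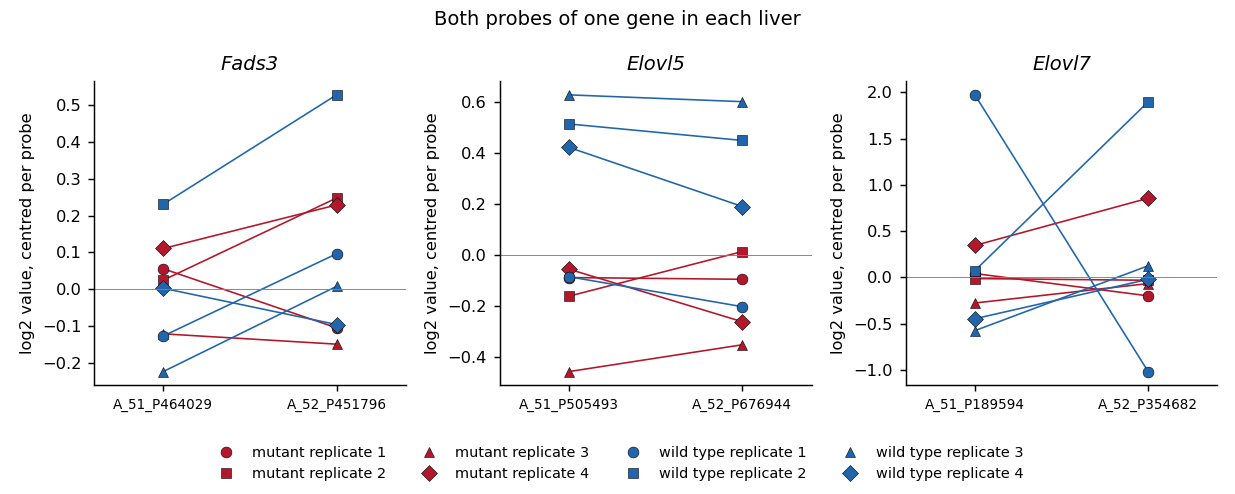
Centred log2 values of both probes of Fads3, Elovl5 and Elovl7, with a line for each mouse. The Elovl5 line of mutant replicate 4 runs from -0.05 to -0.26 and that of WT replicate 4 from 0.42 to 0.19. The Elovl7 line of WT replicate 1 drops to -1.02, against 1.97 on the other probe, and that of WT replicate 2 climbs to 1.90, against 0.07.

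Epithelial markers were set beside Elovl7, with 8.93% of all rows called lower and 6.52% higher. Of 6 measured cholangiocyte markers Sox9 rose (0.88 ± 0.19, limma adjusted p = 0.0193, a call lost without WT replicate 3 or 4) and 0 fell. Epcam and Krt19 were highest in mutant replicate 4, at 1.38 and 1.42. The mean value of the cholangiocyte list ran from -0.70 to 1.01 over mutants and from -0.21 to 0.26 over WT mice. Of 17 squamous epithelium genes 7 fell and 0 rose by the limma test, led by Crct1, Krt4 and Krt15 (-7.32 ± 0.68, -6.58 ± 0.71 and -5.76 ± 0.69), and the list mean ran from -1.01 to -0.75 over mutants and from 0.72 to 2.17 over WT mice. Krt4 was highest in WT replicate 2, at 5.90. Elovl4, an elongase of skin and retina outside the 8 genes, was also highest in that mouse, at 3.27, and differed by -1.44 ± 0.65 (limma adjusted p = 0.180). Without WT replicate 2 its difference was -0.76. The part of these epithelial transcripts in the Elovl7 and Elovl4 values was not tested.

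Among the other elongase and desaturase genes 3 of 9 fell and 1 rose, against 8.93% of all rows lower and 6.52% higher. Elovl6, which extends palmitate, gave -0.40, -0.39, -0.67 and -0.60 in mutant replicates 1 to 4, against 0.39, 0.69, 1.05 and 1.30 in WT replicates 1 to 4. It fell by 1.37 ± 0.20 on the log2 scale (2.58-fold, limma adjusted p = 0.00474). Fads6, a FADS family gene whose reaction is not well defined, fell by 0.82 ± 0.11 (limma adjusted p = 0.00324). Scd1, the main stearoyl-CoA desaturase of liver, fell by 0.74 ± 0.14 (limma adjusted p = 0.0119) and is named after its value was seen, and its call was lost without WT replicates 2 and 3 (adjusted p = 0.0977). Scd3, a paralog, gave 1.29, 0.99, 0.83 and 1.20 in mutant replicates 1 to 4, against -1.35, -0.93, -1.30 and -0.86 in WT replicates 1 to 4, and rose by 2.19 ± 0.17 (4.55-fold, limma adjusted p = 0.000434). The Scd genes are close in sequence, and how far their probes read each other was not tested. The median of the 9 genes was -0.18.

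Elovl6 and Scd1 were set against genes of the polyunsaturated path within arrays. Both pairs were chosen after the values were seen, so they are given as a description. Their p-values entered the adjustment over the within-array comparisons above and are not printed. Elovl6 minus Elovl5 averaged -0.33 ± 0.08 in mutants and 0.54 ± 0.33 in WT mice (SD, n = 4 each), a change of -0.87, with every mutant below every WT mouse. Scd1 minus Fads2 averaged -0.17 ± 0.14 in mutants and 0.34 ± 0.16 in WT mice (SD, n = 4 each), a change of -0.51, again without overlap.

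**Figure D4:**
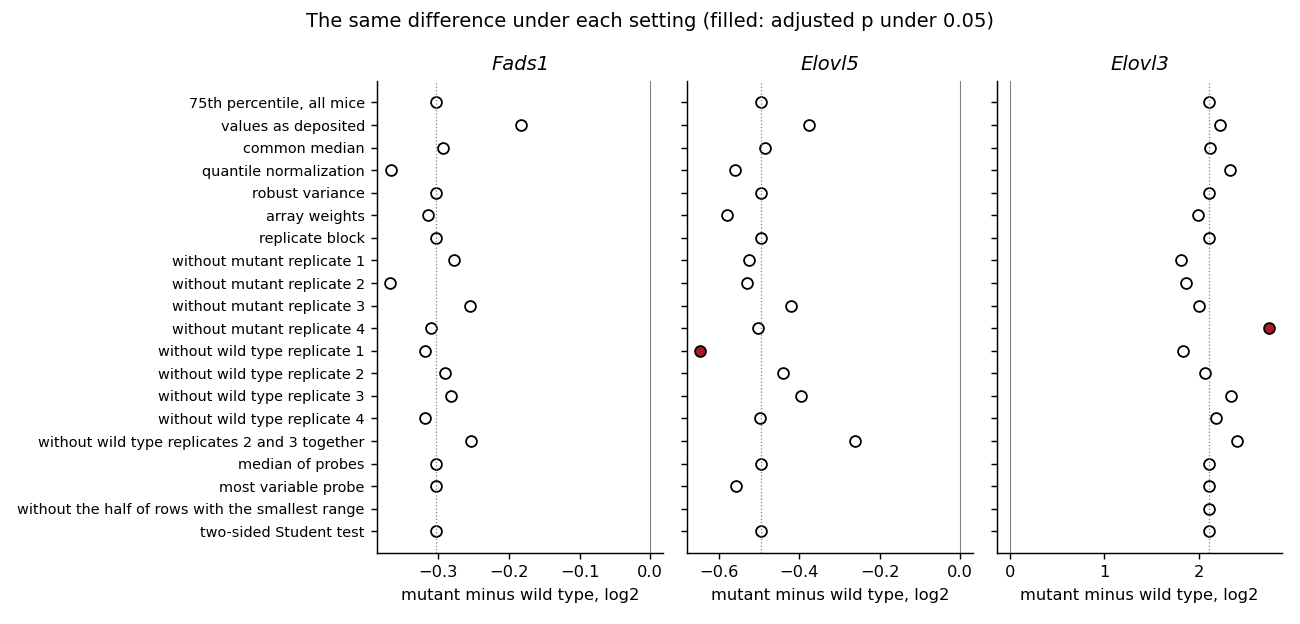
Mutant minus WT difference in log2 of Fads1, Elovl5 and Elovl3 under each setting, filled where the adjusted p is under 0.05, with a dotted line at the value over all mice. The only filled points are Elovl5 without WT replicate 1, at -0.65, and Elovl3 without mutant replicate 4, at 2.75.

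The enzymes that work beside the elongases were counted by the limma test, against 8.93% of all rows lower and 6.52% higher. Of 7 genes of the other steps of the elongation cycle 1 rose, the dehydratase gene Hacd1 (0.94 ± 0.16, limma adjusted p = 0.00778), and 1 fell, the reductase gene Tecr (-0.52 ± 0.13, limma adjusted p = 0.0307). With the most variable probe in place of the mean, Hacd1 rose by 1.74. Hsd17b12, the ketoacyl reductase gene of the cycle, differed by 0.18 ± 0.15 (limma adjusted p = 0.370). The call of Tecr was lost in 9 of 18 other settings, among them leaving out mutant replicate 2, 3 or 4 or WT replicate 1, 3 or 4 (adjusted p of 0.0582 or more). Of 6 genes of cytochrome b5 and its reductases, which carry electrons to desaturases, 2 fell and 1 rose. Cyb5b, the form of the mitochondrial outer membrane, fell by 1.17 ± 0.11 (2.24-fold, limma adjusted p = 0.00101). Cyb5a, the form of the endoplasmic reticulum, did not pass (-0.28 ± 0.11, limma adjusted p = 0.127). The reductase gene Cyb5r2 rose by 2.34 ± 0.31 (5.06-fold, limma adjusted p = 0.00326). Cyb5r3 fell by 0.48 ± 0.13 (limma adjusted p = 0.0408), a call lost when any one of the 8 mice was left out.

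Of 12 genes listed around malonyl-CoA and palmitate synthesis 7 fell and 0 rose by the limma test, with a median of -0.49. Of all rows 8.93% were called lower and 6.52% higher. Those that fell included the fatty acid synthase gene Fasn (-1.29 ± 0.17, limma adjusted p = 0.00306) beside Thrsp and Mid1ip1 (-2.93 ± 0.15 and -1.40 ± 0.17). The list also held Mcat and Oxsm, of mitochondrial fatty acid synthesis, and Mlycd, whose product breaks malonyl-CoA down. Of these, Oxsm was among the 7 (-0.34 ± 0.09, limma adjusted p = 0.0366). The count of 7 was 3 to 5 when 1 mouse was left out, 3 without WT replicate 4, and 4 with the values as deposited. Of 14 regulator genes 4 fell and 1 rose, which is 35.7% called, against 15.5% of all rows. The gene of the lipogenic factor SREBP-1, Srebf1, fell by 1.88 ± 0.20 (limma adjusted p = 0.00146). Insig2, whose product holds SREBP precursors in the endoplasmic reticulum, rose by 1.83 ± 0.20 (3.54-fold, limma adjusted p = 0.00144). Nr1d2, the gene of REV-ERBbeta, fell by 0.51 ± 0.12 (limma adjusted p = 0.0227), a call lost when mutant replicate 1, 2 or 3 or WT replicate 2, 3 or 4 was left out. Ppara differed by -0.11 (limma adjusted p = 0.478) and Mlxipl, the ChREBP gene, by -0.29 (limma adjusted p = 0.170), both named after their values were seen.

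Genes that use the substrates and products of these enzymes were counted in the same way. Of all rows 8.93% were called lower and 6.52% higher, and 30.3% had an unadjusted p under 0.05. Of 9 acyl-CoA synthetase and fatty acid transport genes 2 fell and 0 rose by the limma test, Acsl5 (-0.54 ± 0.12, limma adjusted p = 0.0194) and Acsbg1 (-1.64 ± 0.37, limma adjusted p = 0.0221). Acsl4, the synthetase that prefers arachidonic acid, differed by 0.62 ± 0.20 (limma adjusted p = 0.0825). The call of Acsl5 was lost without mutant replicate 2 or 3 or WT replicate 3, and that of Acsbg1 when mutant replicate 2, 3 or 4 or WT replicate 4 was left out. Of 8 genes that place acyl chains into phospholipids 0 passed by the limma test and 0 had an unadjusted p under 0.05, with Lpcat3, the acyltransferase of polyunsaturated chains, at -0.20 ± 0.10. Of 7 ceramide synthesis genes 0 passed by the limma test and 1 had an unadjusted p under 0.05, which was Cers2, the ceramide synthase of very long chains (-0.23 ± 0.09, limma adjusted p = 0.134). Of 11 peroxisomal genes listed with chain shortening, a step in making docosahexaenoic acid, 1 fell and 1 rose. Pecr, a peroxisomal enoyl-CoA reductase gene and not one of chain shortening itself, fell by 0.75 ± 0.10 (limma adjusted p = 0.00307). Ehhadh, the bifunctional enzyme gene, rose by 0.88 ± 0.23 (limma adjusted p = 0.0375), with 0.93, 1.09, 0.90 and 0.04 in mutant replicates 1 to 4, against -0.26, -0.04, -0.12 and -0.13 in WT replicates 1 to 4, and its call was lost without any one mouse other than mutant replicate 4.

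**Figure D5:**
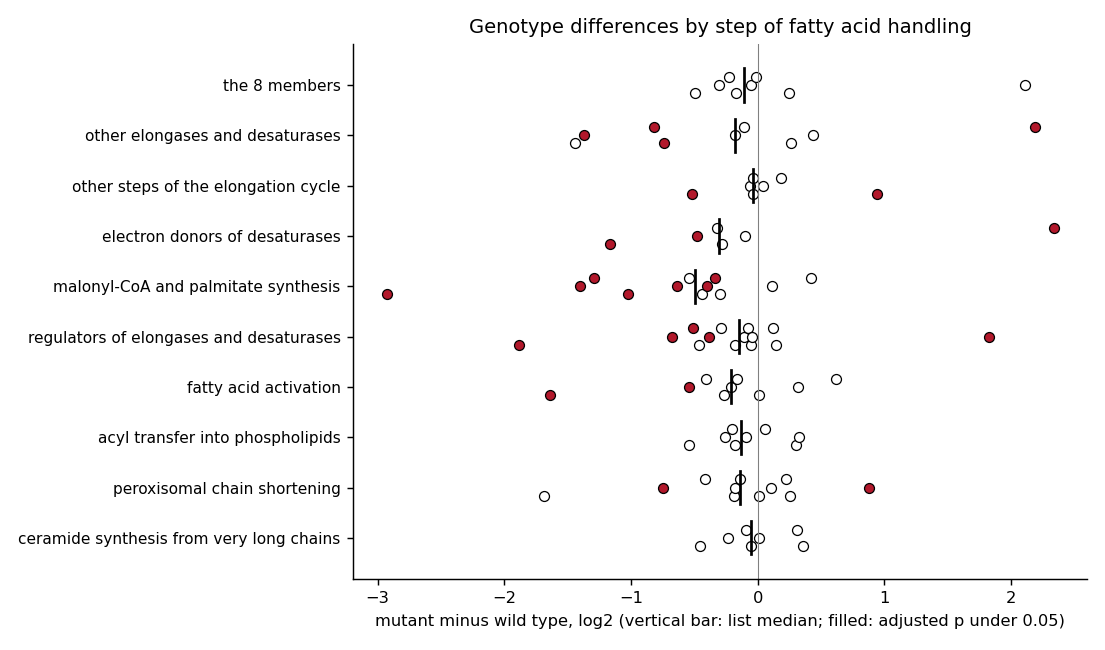
Mutant minus WT difference in log2 of each measured gene, 1 row per step of fatty acid handling, filled where the limma adjusted p is under 0.05, with the list median as a bar. The 8 genes hold 0 filled points and the list of malonyl-CoA and palmitate synthesis holds 7, all below 0.

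Markers of other cell types were counted as well, against 8.93% of all rows lower and 6.52% higher. By the limma test 11 of 12 markers of Kupffer cells and macrophages rose and 0 fell, with list means of 0.43 to 0.73 over mutants and -0.73 to -0.28 over WT mice. Of 10 hepatocyte genes 1 fell, Ttr (-0.71 ± 0.11, limma adjusted p = 0.00587), and 1 rose, Hpx (0.37 ± 0.10, limma adjusted p = 0.0459, a call lost without any one mouse other than WT replicate 1), and the list means ran from -0.13 to 0.09 over mutants and from -0.07 to 0.04 over WT mice. Of 7 genes listed for sebaceous gland 2 rose and 1 fell, with 1 of those that rose, Scd3, also counted above. The other was the lipid droplet gene Plin5 (1.16 ± 0.17, limma adjusted p = 0.00397), which liver also expresses, so neither marks the gland alone. Awat2 fell (-1.54 ± 0.34, limma adjusted p = 0.0219), a call lost without mutant replicate 1, 2 or 3. The part of cell composition in the values of the 8 genes was not tested.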

How the data were processed

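Total liver RNA was labelled with Cyanine 3 by the 1-colour Agilent procedure, per the labels' protocols, with 1 array per mouse, 4 mutant and 4 WT. The deposited values were log values, which the authors had set relative to the median of each probe. Their log2 base was inferred from the range, and the authors' extraction software and scaling are not given in the sources used here. All 8 columns were used, and 0 belonged to no sample.

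Of 41252 probes, 78 control features were set aside. Each array was shifted to a common 75th percentile. Probes with a single symbol were averaged per gene, giving 19532 named genes and 8510 rows for single probes. Genotypes were compared by lmFit and eBayes of limma 3.58.1 (R 4.3.3), two-sided. The threshold was 0.05 after Benjamini-Hochberg adjustment. Figures used matplotlib 3.10.9 under Python 3.11.15. The fit was checked on simulated data. Besides the 8 genes, 190 genes were listed and 170 measured. The others were not analysed here.

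The rule for naming took the 8 genes and the 3 of each list with the smallest p. Of the latter, Lpl, Adipoq, Cftr, Krt7, Vsig4, Cd163, Clec4f, Lpgat1, Kdsr, Cers4 and Hnf4a were not written out. Some genes were named after their values were seen: Scd1, Elovl4, Ppara, Mlxipl, Ucp1, Cidea, Epcam, Krt19, Cyp4a12a and the genes nearest to Elovl3. Mcat, Oxsm, Mlycd, Cyb5a, Cyp4a12b, Hsd3b5 and Uty were likewise named after their values were seen. The 8 genes and the lists were chosen with earlier results of these data known. The alternatives were other scalings, variance models, probe summaries, a filter, a test on each row's own variance, a replicate block and leaving out mice. The p-values measure the spread between these mice.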

Additional observations from a re-analysis of the deposited data

Results flagged for a closer look

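In groups of 4 mice, a value was singled out where its gap to the nearest other mouse exceeded Dixon's 95% critical share of the group's range. This held for 13 of 156 groups checked (8.33%), where chance gives about 5%. Among the 8 genes these were Elovl1 in mutant replicate 1 (0.28), Elovl2 in mutant replicate 2 (0.35) and probe A_52_P354682 of Elovl7 in mutant replicate 4 (0.86). Within arrays, Elovl5 minus Elovl2 was singled out in WT replicate 1 (-0.22) and Fads1 minus Fads2 in WT replicate 4 (-0.0761).

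Among genes near Elovl3 in pattern, mutant replicate 4 was apart for Olfr1462 (-0.12) and Gjc3 (-0.48), and WT replicate 3 for Hmox1 (-0.42). Low values in mutant replicate 4 follow largely from choosing these genes for closeness to Elovl3. Among listed genes, mutant replicate 4 was apart for Lpcat2 (0.56) and mutant replicate 1 for Krt4 (-2.23). WT replicate 1 was apart for the peroxisomal transporter gene Abcd2 (2.49), for the wax synthase gene Awat2 (1.76) and for Nr1d2 (0.0868).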

How the results depend on the processing

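The number of arrays limits the precision, and centred values allow no filter on signal. Over 18 or 19 settings each, Fads1, Fads2, Elovl1, Elovl3 and Elovl5 kept their direction. Fads3 turned to 0.10 as deposited, 0.0055 with array weights, 0.0677 without WT replicates 2 and 3, and ran from -0.0693 to 0.0934 when 1 mouse was left out. Elovl2, on its 1 probe, turned to 0.0637 as deposited and 0.0350 without those 2 mice, and ran from -0.17 to -0.0071 when 1 mouse was left out. Elovl7 ran from -0.34 to 0.0759 when 1 mouse was left out. By probe, leaving out 1 mouse gave -0.0181 to 0.13 for A_51_P464029 and -0.16 to 0.0531 for A_52_P451796 of Fads3, and -0.51 to 0.34 for A_51_P189594 and -0.53 to 0.44 for A_52_P354682 of Elovl7. As deposited and without those 2 mice, A_52_P451796 was at 0.0412 and 0.0556, and A_52_P354682 at 0.0132 and 0.66.

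With 1 mouse left out, 0 to 1 of the 8 genes fell (1 without WT replicate 1), 0 to 1 rose (1 without mutant replicate 4) and 0 to 2 of their probes passed. With array weights 1 probe passed, of Elovl5 (-0.67, limma adjusted p = 0.0315). By exact permutation 1 gene passed, and 0 with a common median or quantile scaling. With 4 mice per group this test passes only where the groups do not overlap. That held for 24.6% of all rows, and for 24.9% and 25.1% under those scalings. The rows changed were 4333, and 1766 without WT replicates 2 and 3, 1988 without the rows of smallest range (which leave 14021 rows and 2 of the 8 genes) and 2884 to 3696 without 1 mouse (2884 without WT replicate 3). The genes passing in the lists of pathways and of sex were 30, and 15, 16 and 18 to 24 under the same 3 settings, with 18 without mutant replicate 2 or WT replicate 4 and 19 without mutant replicate 3.

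Same-numbered mice share only a number, with correlations of deviations of -0.10 to 0.10, and 2 of 4 mutants correlated best with their own number. With the replicate number as a block 2030 rows and 14 listed genes passed, and the smallest exact p allowed is 0.125. Under the block 0 of the 8 genes passed, Hacd1 lost its call (limma adjusted p = 0.0579), and Elovl6 minus Elovl5 (-0.87) and Scd1 minus Fads2 (-0.51) kept their values by construction. When 1 mouse was left out, Elovl5 minus Elovl2 ran from -0.60 to -0.36, Scd1 minus Fads2 from -0.58 to -0.45 and Elovl6 minus Elovl5 from -0.98 to -0.72.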
